A study of Xenopus laevis with 30 samples.

Results

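The ribosomal protein genes of Xenopus laevis, the African clawed frog, were taken as every gene model whose symbol names a protein of the large (RPL) or small (RPS) ribosomal subunit, without the ribosomal protein S6 kinases. The symbol was the one in the gene ID without its copy suffix or, for models known only by an ID, the human symbol deposited beside it, so the choice used names and no measured value. The choice was made with earlier results of these data known. It found 145 gene models, 87 RPL and 58 RPS, among 15596 listed at stage 12 and 16673 listed at stage 10.5. All 145 were in both tables and passed the filter on low values. They carry 71 symbols, 43 of the large and 28 of the small subunit: 59 symbols had 2 models, 6 had 3, 5 had 1, and RPLP2 had 4. The ID ended in .L for 33 models, in .S for 30 and in neither for 82.

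The series sequenced the poly(A) RNA of 30 Nasco-strain embryo samples and asked which genes act when half-embryos regenerate into twins. At each of 2 stages, late gastrula (stage 12) and early gastrula (stage 10.5), there were 3 libraries of dorsal, ventral, left and right half-embryos and 3 of undivided whole embryos. Half-embryos had been divided at stage 8, the blastula, in 1x Barth's solution and then kept in 0.3x Barth's solution, while embryos grew in 0.1x Marc's Modified Ringers, so that the cut and the medium cannot be told apart in any comparison with whole embryos. The labels give neither the number of embryos per library nor separate clutches for the replicates, so a p-value here speaks only of the scatter among these libraries, part of which may be technical.

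A ribosome is built from ribosomal RNA and about one copy each of its ribosomal proteins, which belong to a large subunit that joins amino acids and a small subunit that reads the mRNA. Vertebrate mRNAs for these proteins start with a terminal pyrimidine tract, through which the mTOR pathway and LARP1 set their translation together. The frog egg carries a large store of ribosomes, and the embryo makes ribosomal protein mRNA of its own well before new ribosomes are needed. Xenopus laevis is an allotetraploid: many genes are kept as a pair of homeologs, .L on the long and .S on the short chromosomes of its 2 subgenomes.

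Reads assigned to listed genes numbered 2091772 to 5071874 per library at stage 12 and 3532883 to 5813109 at stage 10.5, and the whole-embryo libraries were the shallowest group on average. A ribosomal protein model rested on a median of 290 reads per library at stage 12 and 222 at stage 10.5. Levels are RPKM, read numbers scaled by gene length and library total. Differences are on the log2(RPKM + 1) scale, which understates changes of low genes, and are given with their standard error. Called means that limma's p-value, adjusted over all genes tested by the Benjamini-Hochberg method, was 0.05 or less. Dorsal and ventral half-embryos matched their markers: organizer genes such as chordin and goosecoid summed to 927 to 1302 RPKM in dorsal and 7.17 to 49.2 RPKM in ventral half-embryos at stage 12, and to 846 to 1043 and 25.5 to 60.2 RPKM at stage 10.5. Of the left half-embryos of stage 12, library 2 stood apart: its organizer genes summed to 100.2 RPKM and its ventral markers to 703 RPKM, where the other left libraries had 703 and 707 RPKM of organizer genes and 248 and 185 RPKM of ventral markers, and right half-embryos 677 to 886 and 150.5 to 229 RPKM. Stage 10.5 was uneven as well: organizer genes summed to 206.6 RPKM in right library 2, against 574 and 589 RPKM in the other right libraries. Left libraries 1, 2 and 3 had 378, 816 and 590 RPKM of organizer genes. Libraries with the same replicate number deviated together, so values are given within each number where it matters. Half-embryos numbered 3 stood apart from the other half-embryos at stage 10.5, and whole embryos numbered 1 from the other whole embryos at stage 12, in the levels of the ribosomal protein genes.

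Ribosomal protein genes were among the more abundant transcripts at both stages, and their median level at stage 12 was well above that at stage 10.5. The median model averaged 108 RPKM at stage 12, where the median of all listed genes was 6.92 RPKM, and 61.2 RPKM at stage 10.5, where it was 7.67 RPKM. A mean of 100 RPKM or more was reached by 80 of the 145 models at stage 12 and by 33 at stage 10.5. The models are short, with a median length of 788 bp against 2503 bp for all genes listed at stage 12. Their share of a library's reads was between 1.22% and 1.68% at stage 12 and between 0.728% and 1.204% at stage 10.5.

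The highest model at stage 12 was rpl3.L, at 384 RPKM over all 15 libraries, which encodes a protein near the peptidyl transferase center. RPS19 (Xelaev18003966m), whose human gene is mutated in Diamond-Blackfan anemia, followed at 366 RPKM. RPL36A (Xelaev18038536m) stood at 355, rps13.S at 342 and RPS18 (Xelaev18039125m), a protein of the small subunit head, at 325 RPKM. At stage 10.5 the first 5 places were held by both RPS18 models (Xelaev18039125m at 283 and Xelaev18042417m at 246 RPKM), the same RPL36A and RPS19 models (246 and 243 RPKM) and rpl3.L (218 RPKM). Of the 5 lowest models at each stage 4 were the same. RPS27 (Xelaev18020804m) averaged 1.85 RPKM at stage 12 and 1.77 at stage 10.5, and RPL11 (Xelaev18028961m) 4.99 and 3.09 RPKM. RPLP2 (Xelaev18022105m) averaged 18.6 and 11.2 RPKM and rpl29.S 24.9 and 12.1 RPKM. The other one was RPS19 (Xelaev18036222m) at stage 12, with 25.5 RPKM, and rpl23.S at stage 10.5, with 13.3 RPKM.

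Models that share a symbol were often unequal. The highest of the 3 RPS27 models (Xelaev18040826m) stood at 130.0 RPKM and the lowest at 1.85 RPKM at stage 12, 70.3 times apart. The RPL11 models spanned 35.2 times and the RPS19 models 14.4 times. For RPL23A the models differed in length as well as level: the one of 588 bp averaged 248 RPKM and the one of 3632 bp 26.3 RPKM at stage 12. Ribosomal protein genes have many near-identical copies and pseudogenes, and the labels and headers used here do not say how reads were shared among them. The split of reads among models of one symbol is therefore uncertain. The libraries carry no strand, so reads of overlapping antisense transcripts would be counted too.

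Summed over the 145 models, half-embryos at stage 12 reached 17669 ± 1199 RPKM (SD, n = 12) and whole embryos 16666 ± 2154 RPKM (SD, n = 3). By group the stage 12 sums were 17448 ± 879 RPKM in dorsal, 18440 ± 722 in ventral, 18296 ± 1526 in left and 16492 ± 806 RPKM in right half-embryos (SD, n = 3 each). The whole embryos of that stage split: libraries 2 and 3 gave 18091 and 17720 RPKM, within the range of the half-embryos (15851 to 19722), and library 1 gave 14188, below all of them. At stage 10.5 the sum was 10984 ± 2019 RPKM in half-embryos and 9032 ± 580 RPKM in whole embryos, whose libraries gave 9411, 8364 and 9320 RPKM. Here the half-embryos split by replicate number: those numbered 3 lay between 13510 and 14008 RPKM, whichever side they came from, and those numbered 1 and 2 between 9205 and 10110 RPKM. In every group the libraries of stage 12 lay above those of stage 10.5.

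**Figure D1:**
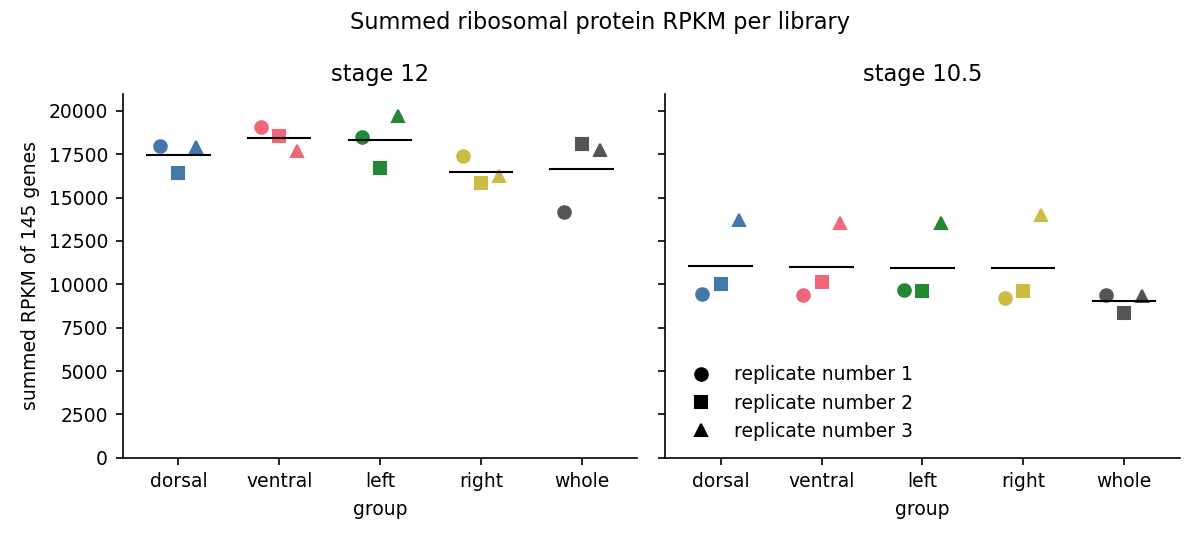
Summed RPKM of the 145 ribosomal protein models in each library, by group, at stage 12 (left panel) and stage 10.5 (right panel), with symbols for the replicate number and bars for group means (n = 3). All libraries of stage 12 (14188 to 19722 RPKM) lie above all of stage 10.5 (8364 to 14008 RPKM), and the half-embryos numbered 3 stand above the others at stage 10.5.

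Over the models chosen by name, the sums of the subunits stood in a like ratio at both stages. The summed RPKM of RPL models was 1.15 ± 0.03 times that of RPS models at stage 12 (SD, n = 15, range 1.09 to 1.19) and 1.19 ± 0.04 times at stage 10.5 (range 1.13 to 1.26). At stage 12 the ratio was 1.16 ± 0.02 in half-embryos and 1.13 ± 0.05 in whole embryos, and at stage 10.5 it was 1.193 ± 0.032 and 1.195 ± 0.060, so the groups overlapped at both stages. There were more RPL than RPS models. The median RPL model (99.1 RPKM at stage 12, 59.2 at stage 10.5) lay below the median RPS model (112 and 67.2 RPKM). The choice by name left out models closest to RPS proteins. At stage 12 rbm6.L and rbm6.S averaged 516 and 154 RPKM, mkrn3.S 159 and rps28p9.S and rps28p9.L 116 and 77.3 RPKM. The RPL-like models left out, rpl27a-like.S and rpl27a-like.L, averaged 58.7 and 52.3 RPKM. More RPS than RPL signal was left out at both stages, so these ratios depend on the naming. Ratios with those models are not given here.

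The comparison of stages in whole embryos asks how these genes behave during undisturbed gastrulation. Ribosomal protein mRNA rose in late gastrulae: 125 of the 145 models were higher at stage 12, none was lower, and the other 20 also had positive differences. Over all 14948 genes tested, 12.2% were called higher and 30% lower. Of the 3701 most abundant other genes, 18.4% were called higher. The median difference was 0.92 for the ribosomal protein models and -0.26 for all genes, a gap of 1.175 that came to 1.198 when libraries were scaled by their upper quartile, which moved the median of all genes to -0.09. In 120 models every stage 12 library was above every stage 10.5 library, against 14.4% of all genes. Among models left out by name, mkrn3.S, closest to RPS10, averaged 155 RPKM in whole embryos at stage 12 and 241 RPKM at stage 10.5. The other left-out models named above averaged higher at stage 12. These differences of left-out models were not tested. Leaving out every library numbered 2, whose stage 12 whole-embryo sum is the highest of the 3, left 73 models called. In that setting 7.8% of all genes were called higher. In bulk RNA, more cells of a type and more RNA per cell cannot be told apart, and poly(A) selection counts only transcripts with a tail.

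Genes of both subunits rose, and a difference between the subunits was not tested. Among RPL models 72 of 87 rose, with a median difference of 0.91, and among RPS models 53 of 58 rose, with a median of 0.96. Models ending in .L rose in 29 of 33 cases (median 0.96), those in .S in 26 of 30 (0.82) and those with neither suffix in 70 of 82 (0.93). In half-embryos 135 models rose and none fell, where 19.5% of all genes were called higher and 44.2% lower, and the median was 0.73 against -0.21 for all genes. RPL and RPS medians there were 0.70 and 0.78. All 12 half-embryos of stage 12 lay above all 12 of stage 10.5 in 66 models, against 3.57% of all genes. The fit took the half-embryos of a stage as separate, although those of the same replicate number deviated together. Its p-values for half-embryos may therefore be too small, and its count of calls too high. The stage difference of half-embryos was not shown to differ from that of whole embryos for any model: limma's test of the difference itself called 0 of 145, with 4 at an unadjusted p of 0.05 or less, 0 called with voom and 0 with the replicate block. Of all genes 0% were called without the block, and 0.763% were higher and 0.334% lower with it. The smallest p-values of that test belonged to RPL13 (Xelaev18024869m, -0.54 ± 0.22, adjusted p = 0.568), RPLP2 (Xelaev18011978m, -1.04 ± 0.43, adjusted p = 0.573) and RPS3 (Xelaev18014054m, -0.42 ± 0.18, adjusted p = 0.604).

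**Figure D2:**
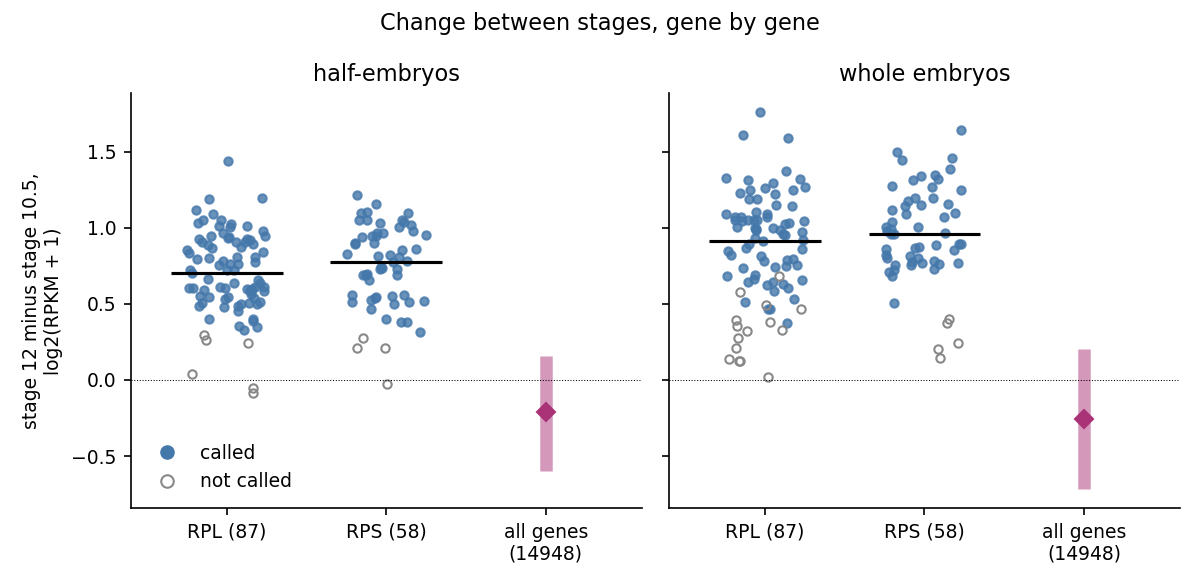
Difference between stage 12 and stage 10.5 in log2(RPKM + 1) for each of the 87 RPL and 58 RPS models in half-embryos (left) and whole embryos (right); filled points were called, open points were not, bars are medians, and the diamond and thick bar give the median and middle quartiles of all 14948 genes. Nearly the whole cloud lies above the median of all genes (-0.21 in half-embryos, -0.26 in whole embryos), at medians of 0.70 to 0.96.

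The 5 smallest p-values in whole embryos included 4 small subunit models. The smallest was that of rps13.L, which had 111, 128 and 130.5 RPKM at stage 12, against 48.5, 49.6 and 45.7 RPKM at stage 10.5 (1.34 ± 0.16, adjusted p = 2.84e-06). For rps6.L, whose protein is the classic substrate of the S6 kinases, the libraries gave 191, 258 and 238 RPKM at stage 12, against 78.6, 71.6 and 67.2 RPKM at stage 10.5 (1.64 ± 0.20, adjusted p = 2.99e-06). The stages were far from overlapping in both genes. The large subunit gene rpl8.L, for a protein close to the catalytic center, had 103, 122.5 and 112 RPKM at stage 12, against 39.7, 40.9 and 30.35 RPKM at stage 10.5 (1.59 ± 0.21, adjusted p = 7.88e-06). For rps16.L, whose protein reaches the decoding site from the head, the values were 70.5, 119.5 and 90.4 RPKM, against 36.2, 44.3 and 34.0 RPKM (1.25 ± 0.17, adjusted p = 8.89e-06). RPS3 (Xelaev18014054m), which lines the mRNA entry channel, rose by 1.15 ± 0.16 (adjusted p = 1.45e-05). In half-embryos the smallest p-values were those of rpl8.L (1.44 ± 0.11, adjusted p = 1.73e-10), rps13.L (1.05 ± 0.08), RPL7A (Xelaev18038372m, 0.98 ± 0.08), rpl8.S (1.03 ± 0.09) and rps6.L (1.15 ± 0.10). Half-embryos of the same replicate number deviated together and this fit had no block, so these standard errors and p-values may be too small.

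The P stalk, which recruits the translation factors that hydrolyze GTP, is made of RPLP0 with RPLP1 and RPLP2 on a base shared with RPL12. In whole embryos 7 of its 9 models rose, with a median difference of 0.80, and the largest difference of all 145 models was that of an RPLP2 model (Xelaev18011978m). It had 42.8, 35.6 and 39.8 RPKM at stage 12, against 17.9, 9.07 and 7.90 RPKM at stage 10.5 (1.76 ± 0.38, adjusted p = 0.000905). The other 3 RPLP2 models rose by 0.58 to 1.29. The 2 copies of rplp0 did not move alike: rplp0.L had 59.5, 156 and 109 RPKM at stage 12, against 50.4, 46.9 and 44.8 RPKM at stage 10.5 (1.07 ± 0.32, adjusted p = 0.00909), and rplp0.S had 23.9, 34.0 and 36.5 RPKM, against 31.9, 24.6 and 28.1 RPKM (0.14 ± 0.23, adjusted p = 0.665). The stages overlap for rplp0.S and do not for rplp0.L. Among RPL12 copies the .S model rose by 0.66 ± 0.18 (adjusted p = 0.00505), and the .L model was at 149 and 137 RPKM at stage 12 and stage 10.5 (0.12 ± 0.23, adjusted p = 0.706).

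RPL5 and RPL11 enter the large subunit together with 5S ribosomal RNA, and in mammals the free particle binds MDM2. Of their 5 models 4 rose, with the smallest median of the groups, 0.51. Both rpl5 copies rose, .L by 0.46 ± 0.14 and .S by 0.51 ± 0.18, as did RPL11 (Xelaev18004063m) by 1.05 ± 0.23 and RPL11 (Xelaev18012629m) by 0.68 ± 0.19. The low RPL11 model (Xelaev18028961m) was at 3.00 ± 0.61 RPKM at stage 12 and 2.81 ± 1.26 RPKM at stage 10.5 (adjusted p = 0.776). RPL10 and RPL24 join the large subunit last, in the cytoplasm, as known from yeast. Of their 4 models 3 rose: rpl24.L by 0.93 ± 0.19, rpl24.S by 0.37 ± 0.13 and RPL10 (Xelaev18038083m) by 0.99 ± 0.31, and RPL10 (Xelaev18040976m) just missed the threshold (0.68 ± 0.28, adjusted p = 0.0547).

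Around the exit of the peptide tunnel sit RPL17, RPL19, RPL23A, RPL26, RPL31 and RPL35, of which RPL23A is the docking site of the signal recognition particle. The models of this ring had the highest median of the groups, 1.15, and 9 of 11 rose. The gene rpl19.L averaged 88.5 RPKM at stage 12 and 27.9 RPKM at stage 10.5 (1.61 ± 0.28, adjusted p = 0.000114). Both rpl17 copies rose (.L 1.25 ± 0.21, .S 1.19 ± 0.19), as did both RPL23A models (1.15 ± 0.20 and 1.05 ± 0.20) in spite of their unequal levels. The 2 that were not called were the copies of rpl35: rpl35.S was at 149 and 123 RPKM at stage 12 and stage 10.5 (0.27 ± 0.14, adjusted p = 0.111) and rpl35.L at 59.2 and 50.8 RPKM (0.21 ± 0.24, adjusted p = 0.506). RPL3 and RPL4 reach with long extensions toward the catalytic center and the tunnel. Here rpl3.L rose by 1.05 ± 0.17 (388 and 185 RPKM at stage 12 and stage 10.5), both RPL4 models rose by 0.96 ± 0.16 and 1.03 ± 0.20, and rpl3.S was not called (0.36 ± 0.20, adjusted p = 0.156).

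In the small subunit, RPS2 and RPS3 at the mRNA entry channel and RPS15 and RPS19 in the head had 8 models, of which 7 rose with a median of 0.88. Both RPS2 models rose strongly, Xelaev18047771m at 219.7 RPKM at stage 12 and 78.5 RPKM at stage 10.5 (1.46 ± 0.22, adjusted p = 2.57e-05) and Xelaev18045525m at 146 and 52.1 RPKM (1.44 ± 0.28). The abundant RPS19 model (Xelaev18003966m) rose by 0.76 ± 0.14, and the rare one (Xelaev18036222m) was the member of this group that was not called (0.37 ± 0.34, adjusted p = 0.405). In the body of the subunit RPS4X, RPS6, RPS14 and RPSA had 8 models, and all 8 rose, with a median of 1.09 and a range from 0.71 ± 0.16 for rps4x.S to 1.64 ± 0.20 for rps6.L. RPSA, also known as the laminin receptor precursor, rose by 1.09 ± 0.19 (Xelaev18023531m) and 1.10 ± 0.23 (Xelaev18025548m). RPS27A, which is made as a fusion with ubiquitin, rose in both copies, .L by 0.90 ± 0.14 and .S by 1.17 ± 0.21.

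The 20 models that were not called in whole embryos were 15 RPL and 5 RPS models. They included some of the most abundant and the rarest: RPS18 (Xelaev18039125m) was at 312 and 268 RPKM at stage 12 and stage 10.5 (0.24 ± 0.29, adjusted p = 0.53). RPL36A (Xelaev18041952m) had the smallest difference, 0.02 ± 0.48, with 79.6, 33.1 and 76.0 RPKM at stage 12, against 64.7, 46.7 and 64.2 RPKM at stage 10.5. Its libraries numbered 2 were the lowest in every group at both stages. A difference that was not called does not show that a level stayed the same: for RPS27 (Xelaev18020804m), at 2.12 and 1.97 RPKM, the standard error was 0.60.

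Comparing half-embryos with whole embryos asks what the half-embryos share after the cut and the change of medium. At stage 10.5 the ribosomal protein genes leaned to higher levels in half-embryos, with few calls: 139 of 145 differences were positive, the median was 0.28 against -0.07 for all genes, and 2 models were called higher and 0 lower, where 2.38% of all genes were called higher and 5.31% lower. Of the 4132 most abundant other genes, 5.74% were called higher. With the replicate number as a block, 75 models were higher and 0 lower, where 10.1% of all genes were higher and 20.3% lower. The lean followed the replicate number. Within number 3 the median difference was 0.60, with 143 of 145 models positive, within number 2 it was 0.23, with 128 positive, and within number 1 it was 0.02, with 78 positive; the medians of all genes were -0.14, -0.06 and -0.04. Without every library numbered 3 the median fell to 0.14, 0 models were called without the block, and with it 7 were higher, where 2.92% of all genes were, and RPS7 (Xelaev18028014m) was lower (-0.29 ± 0.06, adjusted p = 0.0292).

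The place of each library between the stages moved with this result. Over 6181 other genes called between the stages of whole embryos, on a scale where the whole embryos of stage 10.5 average 0 and those of stage 12 average 1, half-embryos of stage 10.5 lay at 0.396 to 0.436 when numbered 3, at 0.155 to 0.32 when numbered 2 and at 0.113 to 0.2 when numbered 1. Whole embryos of stage 10.5 lay between -0.0113 and 0.0129, but the genes were chosen and the scale was set on the whole embryos themselves. Their narrow range therefore does not measure the spread expected of libraries that took no part in the choice. The part of this shift in the levels of the ribosomal protein genes was not tested.

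The 2 models called at stage 10.5 were rps16.L and rpl8.S. In half-embryos rps16.L had a lowest value of 47.9, a median of 55.5 and a highest value of 69.7 RPKM, against 36.2, 44.3 and 34.0 RPKM in whole embryos (0.59 ± 0.12, adjusted p = 0.0151). The range of the half-embryos began above the highest whole embryo. For rpl8.S the half-embryos ran from 51.8 over a median of 65.6 to 93.4 RPKM, against 42.0, 43.8 and 43.7 RPKM in whole embryos (0.64 ± 0.16, adjusted p = 0.0341), again with no overlap. The difference of rpl8.S was 0.41, 0.57 and 0.94 within numbers 1, 2 and 3, and that of rps16.L 0.51, 0.33 and 0.92. In 6 models in all every half-embryo lay above every whole embryo, against 2.17% of all genes. With the block the smallest p-values went to rps6.S (0.53 ± 0.06, adjusted p = 0.000227), rpl8.S, RPL7 (Xelaev18024157m, 0.46 ± 0.07), rps16.L and RPS12 (Xelaev18000107m, 0.83 ± 0.15). Without the libraries numbered 3 the block still called rps6.S (0.52 ± 0.08, adjusted p = 0.0163), rpl8.S, rps16.L and RPL7 (Xelaev18024157m, 0.47 ± 0.09).

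**Figure D3:**
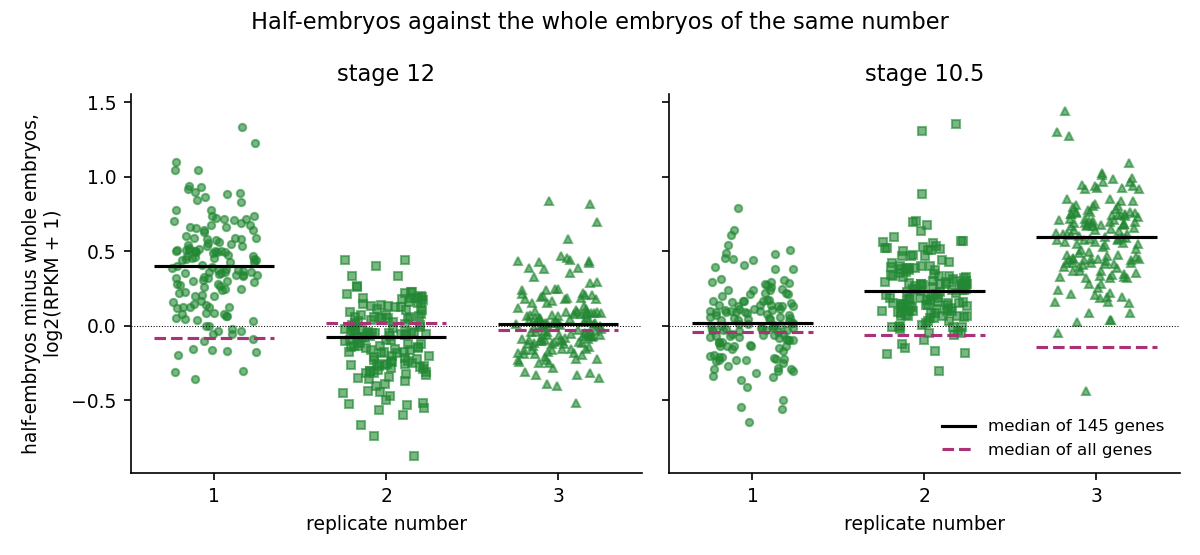
Mean of the 4 half-embryos minus the whole embryos of the same replicate number, in log2(RPKM + 1), for each of the 145 models at stage 12 (left) and stage 10.5 (right); solid bars are medians of the models and dashed bars medians of all genes. The models sit above the other genes in number 1 at stage 12 (median 0.40) and in numbers 3 and 2 at stage 10.5 (0.60 and 0.23), and lie around 0 in the rest.

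At stage 12 the lean was seen mainly in number 1, and, as given above, the change of the difference between the stages was called for 0 models. The whole-embryo library numbered 1 had the lowest summed level of its stage, as given above, and the fewest reads, 2091772. The part of its depth in the lean was not tested. Half-embryos were higher than whole embryos for 103 of 145 models, with a median of 0.10 against -0.03 for all genes; 3 models were called higher and 0 lower, where 1.39% of all genes were called in each direction. Of the 3862 most abundant other genes, 2.51% were called higher. The within-number medians of the ribosomal protein models were 0.40, -0.07 and 0.01 for numbers 1, 2 and 3, and without every library numbered 1 the median was -0.03. The block raised the calls to 15 higher and 1 lower, rpl3.S (-0.28 ± 0.07, adjusted p = 0.0221), where 5.93% of all genes were higher and 6.98% lower. With the block and without the libraries numbered 1, the call of rpl8.S was the only one (0.51 ± 0.08, adjusted p = 0.0315; 1.21% of all genes were higher), and without number 3 there was 0. On the scale between the stages, half-embryos numbered 1 lay at 1.08 to 1.18, the other half-embryos at 0.898 to 0.983 and whole embryos at 0.94 to 1.06, and the part of this in the result was not tested. The whole embryos set this scale, so their own range does not measure the spread expected of other libraries.

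For rpl8.S, half-embryos of stage 12 ran from 114 over a median of 142 to 184 RPKM, against 85.9, 99.2 and 86.9 RPKM in whole embryos (0.62 ± 0.10, adjusted p = 0.00853). All 12 half-embryos lay above all 3 whole embryos, as at stage 10.5, and the difference was 0.83, 0.44 and 0.58 within numbers 1, 2 and 3. RPS21 (Xelaev18043517m), a small protein of the small subunit body, ran from 43.8 over 50.2 to 78.8 RPKM in half-embryos, against 20.7, 39.7 and 33.9 RPKM in whole embryos (0.75 ± 0.16, adjusted p = 0.0308). RPS3 (Xelaev18016414m) ran from 66.3 over 73.6 to 90.1 RPKM in half-embryos, against 51.1, 64.7 and 54.6 RPKM in whole embryos (0.40 ± 0.09, adjusted p = 0.0323). Neither overlapped between half-embryos and whole embryos, which held for 5 models in all and for 1.95% of all genes. The other RPS3 model (Xelaev18014054m) did not share the difference: it averaged 176 ± 14.3 RPKM in half-embryos and 187 ± 18.2 RPKM in whole embryos (-0.09, adjusted p = 0.584). With the block rpl24.L (0.50 ± 0.08, adjusted p = 0.00386), RPL10 (Xelaev18040976m, 0.42 ± 0.08, adjusted p = 0.00603) and RPS27A (Xetrov90013213m.S, 0.42 ± 0.10, adjusted p = 0.0176) were among those called higher.

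Each kind of half-embryo was also set against whole embryos, and these 4 comparisons share the whole-embryo libraries. At stage 12, ventral half-embryos had 3 models called higher, where 1.44% of all genes were: rpl8.S (184, 159 and 139 RPKM, 0.81 ± 0.13, adjusted p = 0.00342), RPS3 (Xelaev18016414m; 90.1, 86.4 and 76.2 RPKM, 0.56 ± 0.11, adjusted p = 0.0129) and RPL11 (Xelaev18028961m; 6.07, 9.90 and 7.37 RPKM, against 2.44, 3.65 and 2.91 RPKM in whole embryos, 1.12 ± 0.29, adjusted p = 0.0482). Dorsal, left and right half-embryos had 0, where 0.378%, 0.0577% and 0.224% of all genes were called higher. The RPL11 model called in ventral half-embryos was the lowest of all RPL models, at a mean of 4.99 RPKM at stage 12. In the other direction limma called 0 models of ventral, dorsal, left or right half-embryos lower than whole embryos, where 2.51% (ventral), 0.436% (dorsal), 0.0513% (left) and 0.128% (right) of all genes were lower. The block gave 15 models in ventral (4.82% of all genes), 4 in dorsal (3.17%), 5 in left (1.63%) and 2 in right half-embryos (2.76%), all higher. In dorsal half-embryos they were rpl8.S, rpl24.L, RPL10 (Xelaev18040976m) and RPS3 (Xelaev18016414m), and in right half-embryos rpl8.S and RPS21 (Xelaev18043517m). In left half-embryos they were rpl8.S, rpl24.L, RPL10 (Xelaev18040976m), RPS21 (Xelaev18043517m) and RPL7A (Xelaev18038372m); these lists were drawn up after their values were seen. At stage 10.5, dorsal half-embryos had rps16.L called (54.9, 56.2 and 62.6 RPKM, 0.60 ± 0.15, adjusted p = 0.0467; 1.01% of all genes were higher), and the other 3 kinds had 0 (0.654% in ventral, 0.15% in left and 0.114% in right). No kind had a model called lower, where 3.21% of all genes were in dorsal, 1.4% in ventral, 0.3% in left and 0.222% in right half-embryos. The block gave 41 models higher in dorsal (7.71% of all genes), 33 in ventral (5.94%), 23 in left (5.04%) and 21 in right half-embryos (4.4%).

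**Figure D4:**
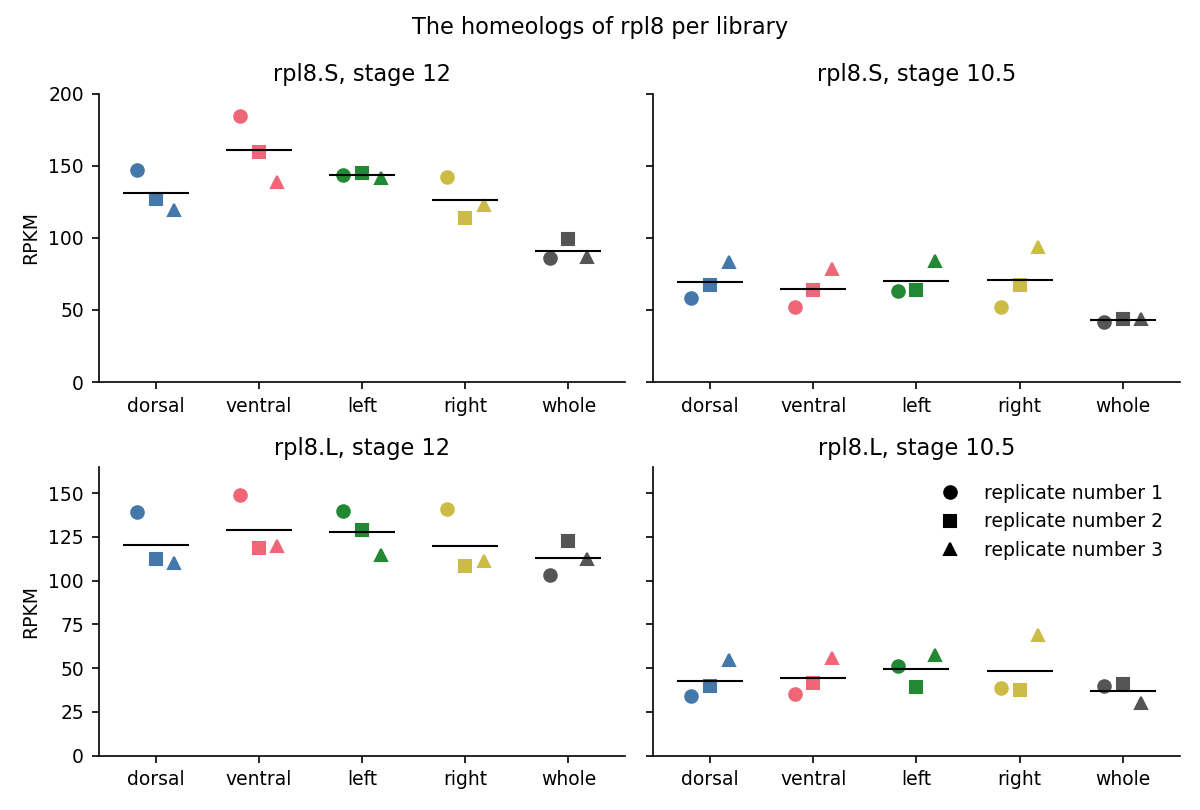
RPKM of rpl8.S (top) and rpl8.L (bottom) in every library at stage 12 (left) and stage 10.5 (right), with symbols for the replicate number and bars for group means (n = 3). For rpl8.S every half-embryo lies above every whole embryo at both stages, while the libraries of rpl8.L overlap.

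Between kinds of half-embryos no ribosomal protein model was called. For dorsal against ventral half-embryos limma called 0 of 145 at both stages, with 5 at an unadjusted p of 0.05 or less at stage 12 and 0 at stage 10.5, and voom and the block also called 0; of all genes, 2.01% and 0.6% were called higher in dorsal at stage 12 and stage 10.5, and 1.75% and 0.39% lower. The smallest p-value was that of RPL11 (Xelaev18028961m) at stage 12, with 4.32, 1.76 and 5.48 RPKM in dorsal and 6.07, 9.90 and 7.37 RPKM in ventral half-embryos (-0.92 ± 0.29, adjusted p = 0.128). This model was the lowest of all RPL models at that stage, at a mean of 4.99 RPKM. RPS27 (Xelaev18042936m) and RPS9 (Xelaev18036189m) came next at stage 12 (-0.31 ± 0.11 and -0.49 ± 0.20, adjusted p = 0.21 and 0.325), and rplp1.L (-0.31 ± 0.22, adjusted p = 1) had the smallest p-value at stage 10.5. The median difference over the models was -0.08 at stage 12, where 109 were lower in dorsal, and 0.01 at stage 10.5. The lean of stage 12 did not hold in every number: within numbers 1, 2 and 3 the medians were -0.10, -0.18 and 0.02, with 43, 24 and 78 models higher in dorsal, where 55.0%, 50.1% and 48.0% of all genes were.

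Left and right half-embryos come from one midline cut. Here 0 models were called at both stages, with limma, voom or the block, and 0% of all genes were called; 8 models at stage 12 and 0 at stage 10.5 had an unadjusted p of 0.05 or less. At stage 12, 134 of 145 models were higher in left half-embryos, with a median of 0.15 against -0.02 for all genes. In 26 models every left library lay above every right one, against 2.12% of all genes. Models of a library shifted together, so these counts do not stand for 145 separate observations. The within-number medians were 0.08, 0.07 and 0.27 for numbers 1, 2 and 3, and in number 3 the summed level was 19722 RPKM in the left and 16228 RPKM in the right library. Axis markers moved between these libraries too, through left library 2: its neural plate markers summed to 216 RPKM, against 435 and 477 RPKM in the other left libraries and 447 to 454 RPKM in right ones, with few organizer and many ventral transcripts as given above. Without that library the median was 0.22, 135 models were higher in left, 60 did not overlap, against 5.41% of all genes, and 0 were called. Without left library 3 the median was 0.08, with 104 models higher. Endoderm markers were lower in left than in right within each number: 279 and 295 RPKM in number 1, 338 and 373 in number 2, 188 and 286 in number 3. Germ plasm markers were lower in left too within each number, and epidermis and ventral markers were higher. The other marker lists were mixed. The part of these tissue differences in the lean was not tested. The smallest p-value was that of rps13.L, with 136, 121 and 134 RPKM in left and 100.5, 93.0 and 109 RPKM in right half-embryos (0.37 ± 0.11, adjusted p = 1). At stage 10.5 the median was 0.01 and 80 of 145 models were higher in left half-embryos. It was -0.15 without left library 3, with 16 models higher, and 0.20 without right library 3, with 140 models higher. Organizer markers were uneven among these libraries too, as given above. Sagittal half-embryos (left and right) against frontal ones (dorsal and ventral) gave 0 calls at both stages as well, with limma, voom or the block, where 0.0128% and 0.018% of all genes were called higher, and 0% and 0.006% lower; 2 models at stage 12 and 1 at stage 10.5 had an unadjusted p of 0.05 or less. Medians were -0.04 and -0.02, and the smallest p-values were those of RPS3 (Xelaev18016414m, -0.18 ± 0.08, adjusted p = 1) at stage 12 and of the rare RPS27 model (Xelaev18020804m, -0.86 ± 0.37, adjusted p = 1) at stage 10.5.

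Both homeologs were listed for 29 pairs, and neither subgenome dominated. The .L copies made up 51.8% ± 1.18 of the summed RPKM of the pairs at stage 12 and 49.8% ± 1.05 at stage 10.5 (SD, n = 15). At stage 12 the share was 51.6% ± 1.08 in half-embryos and 52.5% ± 1.58 in whole embryos. Pair by pair the copies often differed in RPKM. At stage 12 the .L copy was the higher one in 13 pairs and the .S copy in 16. This held in all 15 libraries for 12 and 13 of them. At stage 10.5 the counts were 12 and 17. Over all homeolog pairs the .L copy was the higher one in 1680 and the .S copy in 1345 at stage 12 (1075 and 779 in all 15 libraries), and in 1779 and 1487 at stage 10.5. A difference of at least 2-fold was seen in 13 pairs at stage 12, or 44.8% of them against 42.0% of all 3025 homeolog pairs, and in 14 at stage 10.5, or 48.3% against 42.4% of 3266.

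The widest pair was rps29, with 200 RPKM for .L and 45.2 RPKM for .S at stage 12 (2.103 ± 0.25 in log2, SD over 15 libraries) and 141 and 35.2 RPKM at stage 10.5. At stage 12 rps4x (278 and 70.3 RPKM), rpl23 (92.0 and 27.1 RPKM) and rplp0 (135 and 40.1 RPKM) also leaned to .L, while rpl14 leaned to .S (34.6 RPKM for .L and 116 RPKM for .S). At stage 10.5 the 5 widest were rps29, rps13 (54.4 and 212 RPKM), rpl23, rpl15 (37.3 and 133 RPKM) and rpl14. Among the most even pairs at stage 12 were rpl8 (122 and 131 RPKM), RPL9 (LOC101733414), rps26 and rpl38, with absolute log2 ratios of 0.07 to 0.23, and at stage 10.5 RPL32 (LOC100493057; 61.2 and 61.7 RPKM), rps26, RPL9 and rpl38. Copies of a pair differ in their modelled length, and reads that fit both cannot be placed, so these ratios carry the uncertainty of the counting. In each pair named here as wide, the lower copy had the longer model. The .L and .S models of rps29 had 234 and 1064 bp, those of rpl23 440 and 2064 bp, and those of rpl14 1710 and 485 bp. Some less wide pairs, such as rpl5 and rpl19, went the other way. RPKM divides reads by model length, and the part of length in these ratios was not tested.

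Between the stages of whole embryos the ratio of .L to .S changed in 6 of the 29 pairs, each time toward .L. Of all 2885 pairs 18% were called, a share near that of the ribosomal protein pairs, 10.1% toward .L and 7.94% toward .S. The median change was 0.13 over the 29 pairs and 0.03 over all pairs. The largest called change was that of rplp0 (0.94 ± 0.21, adjusted p = 0.00335), whose .L copy rose and whose .S copy was not called. For rpl3, .L had 331, 463 and 369 RPKM at stage 12, against 196, 182 and 177 RPKM at stage 10.5, and .S had 176, 215 and 236 RPKM, against 154, 146 and 190 RPKM (0.69 ± 0.21, adjusted p = 0.0245). For rps13, .L had 111, 128 and 130.5 RPKM at stage 12, against 48.5, 49.6 and 45.7 RPKM at stage 10.5, and .S had 272, 271 and 327 RPKM, against 181, 155 and 177 RPKM (0.58 ± 0.13, adjusted p = 0.00248). Both copies of rps13 were higher at stage 12 in every library, and the rarer one by the larger factor. The other 3 pairs were rpl24 (0.56 ± 0.18, adjusted p = 0.029), rpl8 (0.54 ± 0.13, adjusted p = 0.00396) and rpl15 (0.45 ± 0.11, adjusted p = 0.0077). Leaving out 1 library at a time gave 4 to 7 pairs, of which 1 ran toward .S without whole-embryo library 1 of stage 10.5 (RPS27A, Xetrov90013213m, -0.42 ± 0.13, adjusted p = 0.0356) or library 2 (rpl23, -0.71 ± 0.23, adjusted p = 0.0424).

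**Figure D5:**
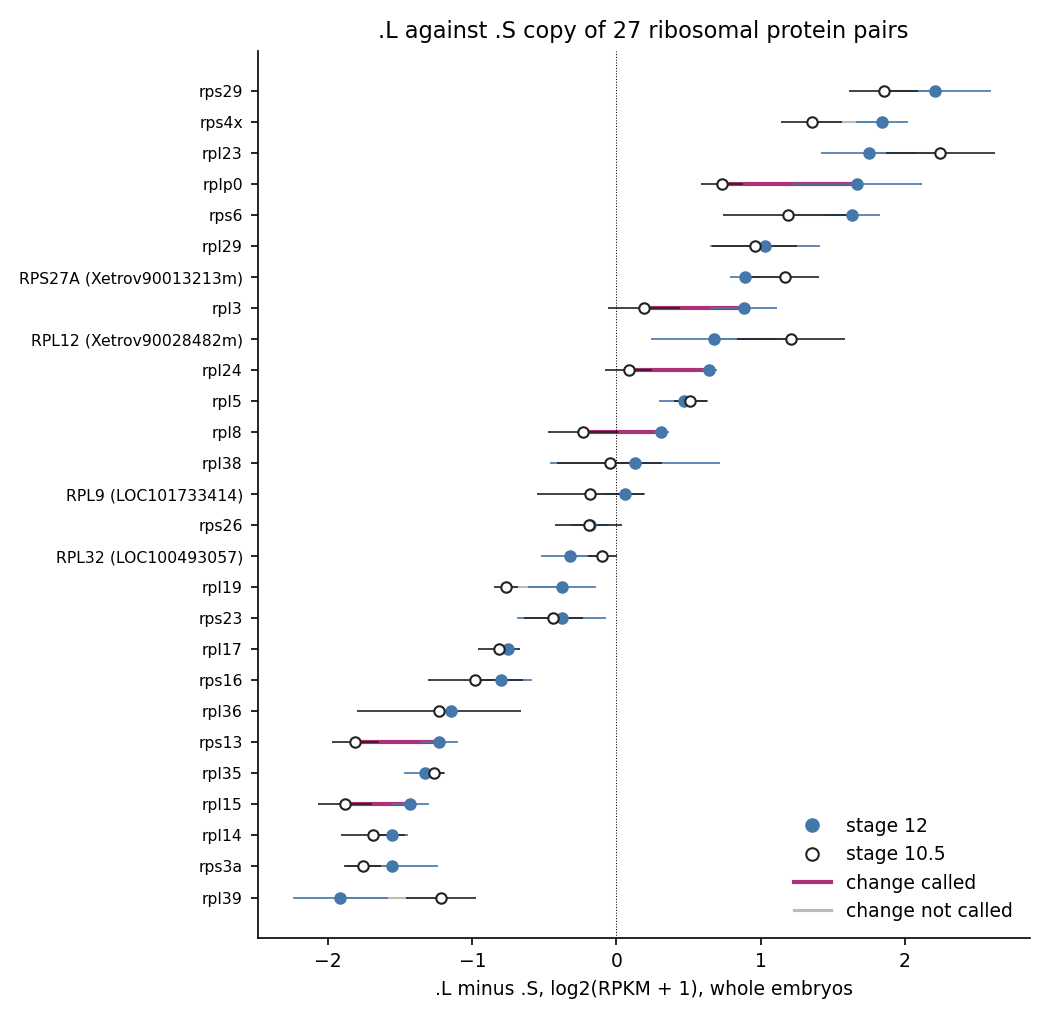
Log2 ratio of the .L to the .S copy, as the difference in log2(RPKM + 1), for 27 homeolog pairs in whole embryos (mean and SD, n = 3) at stage 12 (filled) and stage 10.5 (open), ordered by the stage 12 value. The pairs spread over both sides of 0, and the 6 called changes (rplp0, rpl3, rps13, rpl24, rpl8 and rpl15, colored lines) all run toward .L at stage 12.

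Half-embryos differed from whole embryos in the ratio of 1 pair at stage 12, rpl8, where 0.463% of 3024 pairs were called. Its .S copy averaged 140 ± 19.0 RPKM in half-embryos and 90.7 ± 7.41 RPKM in whole embryos, and its .L copy 124 ± 14.3 and 113 ± 9.57 RPKM, so that the order of the copies turned round (-0.48, adjusted p = 0.0164). With the block the ratio was lower in half-embryos for 3 pairs, where 6.15% of all pairs were called: rpl8 (adjusted p = 0.0036), RPS27A (Xetrov90013213m, -0.41 ± 0.07, adjusted p = 0.00707) and rps13 (-0.38 ± 0.09, adjusted p = 0.0254). At stage 10.5 limma called 0 of 29 pairs, with 7 at an unadjusted p of 0.05 or less, where 1.78% of all pairs were called; the block called 5, where 13% were. Of these rpl24 (0.36 ± 0.10, adjusted p = 0.0373) and rpl3 (0.24 ± 0.07, adjusted p = 0.0308) were higher in half-embryos, and rpl39 (-0.43 ± 0.10, adjusted p = 0.0154), rpl8 (-0.35 ± 0.10, adjusted p = 0.0411) and RPS27A (-0.33 ± 0.09, adjusted p = 0.0308) were lower. For dorsal against ventral, left against right and sagittal against frontal half-embryos 0 pairs were called at both stages, with or without the block, and at most 2 pairs had an unadjusted p of 0.05 or less without it.

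Genes that work with the ribosomal proteins were read from lists of textbook members, which were chosen with earlier results of these data known. In whole embryos 27 of 53 genes of ribosome biogenesis rose at stage 12 and 2 fell, with a median difference of 0.42, where 12.2% of all genes rose and 30% fell at a median of -0.26. Nucleolin (NCL, Xetrov90014636m.S, 0.98 ± 0.13, adjusted p = 5.95e-06) had the smallest p-value. Another model with this base ID carries a different closest human symbol, so the name is uncertain. Nucleostemin (GNL3, Xetrov90028698m.1, 0.95 ± 0.13) and EBNA1BP2 (LOC101730438-like.L, 0.88 ± 0.14) came next. All these names are of nucleolar proteins. Among translation factors and other genes whose mRNAs share the terminal pyrimidine tract 19 of 36 rose and 0 fell (median 0.59), with elongation factor EEF1A1 at 1.32 ± 0.13 (Xelaev18002122m) and 1.15 ± 0.12 (Xelaev18029462m) and hnrnpa1.L at 0.86 ± 0.08. Of 37 initiation factors 18 rose and 2 fell (median 0.35), led by the helicase EIF4A1 (Xelaev18019581m, 1.02 ± 0.11). Outside the 145 models, the paralog RPL7L1 (Xelaev18026448m) rose by 1.02 ± 0.18. Among growth control genes 3 of 23 rose, a share near the 12.2% of all genes, and 12 fell, where 30% of all genes did (median -0.56 against -0.26). Those that fell included rptor.L, the mTOR partner raptor (-1.15 ± 0.18, adjusted p = 3.26e-05), tsc1.L, an inhibitor of mTOR (-1.56 ± 0.27), and the kinase gene rps6ka1.S (-0.97 ± 0.17).

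Between half-embryos and whole embryos few of these genes passed. Of all genes, 1.39% were called in each direction at stage 12, and 2.38% higher and 5.31% lower at stage 10.5. The shares of initiation factors and growth control genes called higher were above those of all genes at both stages. That of tract-bearing genes was above it at stage 10.5. These differences in share were not tested, and the lists are small. Abundant genes were called more often: 2.51% of the 3862 most abundant other genes were higher at stage 12, and 5.74% of 4132 at stage 10.5. The lists were not matched to other genes by level. At stage 12, 1 of 53 biogenesis genes rose in half-embryos (utp15.S, 0.64 ± 0.15, adjusted p = 0.0369), 1 of 36 tract-bearing genes fell (eef1b2.L, -0.68 ± 0.16, adjusted p = 0.042), and of 37 initiation factors eif1.S (1.14 ± 0.13, adjusted p = 0.00127) and eif2s3.S (0.29 ± 0.07) rose. A pair of models of MYC, a transcription factor that drives ribosome production, rose as well (Xelaev18034007m, 0.91 ± 0.18, and Xelaev18032361m, 0.99 ± 0.19, adjusted p = 0.0207 for each), the only 2 of 23 growth control genes called. At stage 10.5 the counts were 1 of 53 (utp15.S again, 0.83 ± 0.19, adjusted p = 0.0218), 4 of 36, 5 of 37 and 2 of 24, all higher in half-embryos. They included tpt1.L (0.37 ± 0.09), EIF4A1 (Xelaev18001058m, 0.80 ± 0.13, adjusted p = 0.00594), eif1.S (1.12 ± 0.22), eif5a.L (0.46 ± 0.10), MYC (Xelaev18032361m, 1.45 ± 0.30, adjusted p = 0.0162) and rheb.S, an activator of mTOR (0.36 ± 0.08).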

How the data were processed

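Poly(A) RNA of 30 Xenopus laevis libraries was sequenced as 100-base single reads with an unstranded kit, per the labels' protocols. The authors deposited RPKM values per gene in a table for each stage, limited to genes averaging above 1 RPKM, with closest human symbols from a protein search, per the file headers. TopHat2 2.09 and DESeq appear in the submitters' processing notes, which give no read counter in the form used here. Low values in every column were whole multiples of 1 read (100% of genes, within a relative 1.29e-09), so reads and gene lengths were recovered, with the same length for 100% of 14948 shared genes. RPKM values were therefore compared between stages.

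Differences came from limma 3.58.1 (trended, two-sided, R 4.3.3) on log2(RPKM + 1), over genes at 1 RPKM or more in at least 3 libraries, with the 15 libraries of a stage, or all 30 between stages, in 1 fit and no block. Because the deposited unit was RPKM, no count model was the main test, and voom on recovered reads was an alternative. Libraries with the same replicate number deviated together (lowest correlation 0.414 at stage 10.5 and 0.274 at stage 12 over 30 pairs each, medians 0.534 and 0.411), and the control descriptions name the half-embryos of the same number, so the numbers pair the samples and values with the number as a block are given where they change calls. On simulated data of half-embryos against whole embryos at stage 10.5 (16671 genes), 75.8% of genes changed 2-fold and 99.0% of those changed 4-fold were called, and 0.115% of unchanged ones. The simulated libraries were independent, with the same dispersion for every gene and no shared deviation by replicate number. These rates therefore need not hold for the real libraries.

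Named were all members of role groups, per comparison the called genes (the 5 of smallest p in each direction beyond 10, the 3 of smallest p where none was called), the 5 highest and lowest, the 5 widest and most even pairs, and 3 called genes per pathway list. Members and lists were chosen with earlier results of these data known. Protein and promoter sequences were not used here. A few genes are not reported here.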

Additional observations from a re-analysis of the deposited data

How the results depend on the processing

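With the replicate block, models called numbered 75 for half-embryos against whole embryos at stage 10.5, and 41, 33, 23 and 21 for dorsal, ventral, left and right; at stage 12 they numbered 16, and 4, 15, 5 and 2. Pairs with a changed ratio numbered 5 at stage 10.5 and 3 at stage 12 under the block. The block changed no other call count; between stages it could be fitted only for the test of the difference between half-embryos and whole embryos (0 called), since number within stage absorbs the stage. With voom, half-embryos against whole embryos gave 1 call at each stage and dorsal at stage 10.5 gave 0. Leaving out every library of 1 number gave 0 calls for half-embryos against whole embryos at both stages and 0 for dorsal at stage 10.5. Without number 1 or 3 it gave 0 for ventral at stage 12. Of all genes, 0.486%, 0.162% and 0.012% were higher in half-embryos at stage 10.5 without numbers 1, 2 and 3. At stage 12 these shares were 0.0834%, 0.257% and 0%. With the block, leaving out numbers 1, 2 and 3 gave 84, 26 and 8 calls for half-embryos at stage 10.5. At stage 12 it gave 1, 18 and 0. Of all genes, 7.49%, 5.24% and 2.92% were then higher at stage 10.5, and 1.21%, 4.59% and 0.0705% at stage 12. These settings were chosen after seeing the data. Fitting only the groups compared gave 0 for dorsal at stage 10.5 and 1 for ventral at stage 12. A mean of 5 RPKM or more gave 1 for ventral at stage 10.5 (rps16.L), and quantile normalization 1 each for dorsal and left at stage 12 (rpl8.S). The median stage difference of whole embryos stayed positive in every setting run, with 73 calls without number 2 as its lowest count. There 7.8% of all genes were called higher. The RPL to RPS ratio was 1.265 at stage 10.5 without the 3 highest models of each subunit, and 0.8485 at stage 10.5 and 0.8531 at stage 12 by medians. Leaving out 1 library gave 0 to 3 calls for half-embryos at stage 10.5 and 0 to 8 at stage 12, 0 to 1 for dorsal at both stages, 0 to 1 and 1 to 8 for ventral at stage 10.5 and 12, 0 to 3 for left at stage 12, 0 to 1 for dorsal against ventral at stage 12, 103 to 128 and 134 to 137 between the stages of whole and half-embryos, and for pairs 0 to 2 at stage 12 and 4 to 7 between stages. The share of all genes is not given here for the gene counts among these ranges. The causes were not tested. Among named genes 1127 values kept their side of the threshold, 72 lost it and 24 gained it. Whole embryos of stage 12 had the fewest reads on average, which limits precision for the rarest models.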

Other observations

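A few gene models have a ribosomal protein as their closest human protein but another name in their ID, and were not among the 145. The model rbm6.L, closest to RPS20, averaged 518 RPKM in half-embryos and 510.1 RPKM in whole embryos at stage 12, and 310 and 255 RPKM at stage 10.5. Over all libraries of stage 10.5 it averaged 298.5 RPKM. The model rbm6.S, also closest to RPS20, averaged 154 RPKM over all libraries at stage 12 and 99.8 RPKM at stage 10.5. The models rps28p9.S and rps28p9.L, closest to RPS28, averaged 116 and 77.3 RPKM at stage 12 and 107 and 56.1 RPKM at stage 10.5. The model mkrn3.S, closest to RPS10, averaged 159 RPKM over all libraries at stage 12 and 219 RPKM at stage 10.5. Alone among these models, it had a lower mean at stage 12 than at stage 10.5. The models rpl27a-like.S and rpl27a-like.L, closest to RPL27A, averaged 58.7 and 52.3 RPKM at stage 12 and 23.5 and 23.4 RPKM at stage 10.5.

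Short genes differed from long ones across the whole tables. Between half-embryos and whole embryos at stage 10.5 the median difference was 0.02 in the shortest 4132 genes and -0.16 in the longest 4132, and between the stages of whole embryos it was -0.10 in the shortest 3701 and -0.39 in the longest 3701. The medians of the ribosomal protein models, which are short, were 0.28 and 0.92 in these comparisons.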
